A study of Mus musculus with 2 samples.

Results

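The genes described here are 38 genes of the interferon response and of nucleic acid sensing, taken by symbol from a table of 55337 gene symbols, and all 38 were found in it. Their levels were compared between KPC2, a mouse pancreatic cancer cell line, and a gemcitabine-resistant derivative of that line. The wild type cells grew without drug, and the resistant cells had been treated for a long time with 260 ng/mL gemcitabine, a deoxycytidine analogue, and were kept in it. Both grew in the same serum-containing medium, and the labels do not say whether the resistant cells are 1 clone or a pool. There was 1 library per group, so each difference describes these libraries, has no replicate check and carries no p-value. Effects of the drug being present cannot be told apart from those of acquired resistance, and in such bulk RNA neither can fewer expressing cells and less RNA per cell.

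Cells detect stray RNA and DNA with sensor proteins. RIG-I (gene Ddx58) and MDA5 (Ifih1) bind double-stranded RNA and signal through MAVS, while cGAS binds cytosolic DNA and signals through STING, and both routes reach the kinase TBK1 and the factor IRF3, which switch on interferon genes. Secreted interferon binds receptors that activate STAT2. With IRF9 it forms part of the complex ISGF3, which binds the interferon-stimulated response element in promoters of antiviral genes such as Isg15, Ifit1, Mx1 and Oas1a. Tumour cells can keep part of this programme on without infection, and DNA-damaging drugs are known to engage it in some settings.

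Part of the classical antiviral programme was silent or nearly silent in both libraries. Of the 38 genes, 21 reached 1 FPKM (fragments per kilobase of transcript, scaled to library size) in at least 1 library and are called measured below. The other 17 did not, against 43144 of all 55337 gene symbols. Isg15, Cmpk2, Ifi44 and Ifitm1 were listed at 0 in both. Ratios are of resistant to wild type, and log2 ratios have 1 added to each FPKM. By that measure Ddx58 and Oas1a exceeded a 2-fold gain in resistant cells and Samd9l a 2-fold loss, and the other 18 measured members stayed inside these bounds. These 2 higher genes of 21 are 9.52% of the measured group, against 7.9% of all 12193 measured genes. The 1 lower gene is 4.76%, against 8.37% of all measured genes, so both shares are near the background. The group's median log2 ratio was -0.17, with 10 genes above 0 and 11 below, and the median over all measured genes was 0.02. Members therefore stood on both sides, and the sections below give them by role. The scale understates differences of low genes: with 0.1 in place of 1 as the added constant, 5 members were higher (Bst2, Irf7 and Stat2 besides the former pair) and 2 lower (Irf9 and Samd9l), against 10.8% and 12.7% of all genes. With both libraries scaled to the same FPKM sum, which moved the median of all genes to -0.24, no member was higher and 2 were lower (Irf1 and Samd9l), against 5.09% and 13.3% of all genes. Scaling to the same upper quartile moved that median to -0.10 and left the members at 2 and 1, against 6.35% and 10.2% of all genes.

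**Figure D1:**
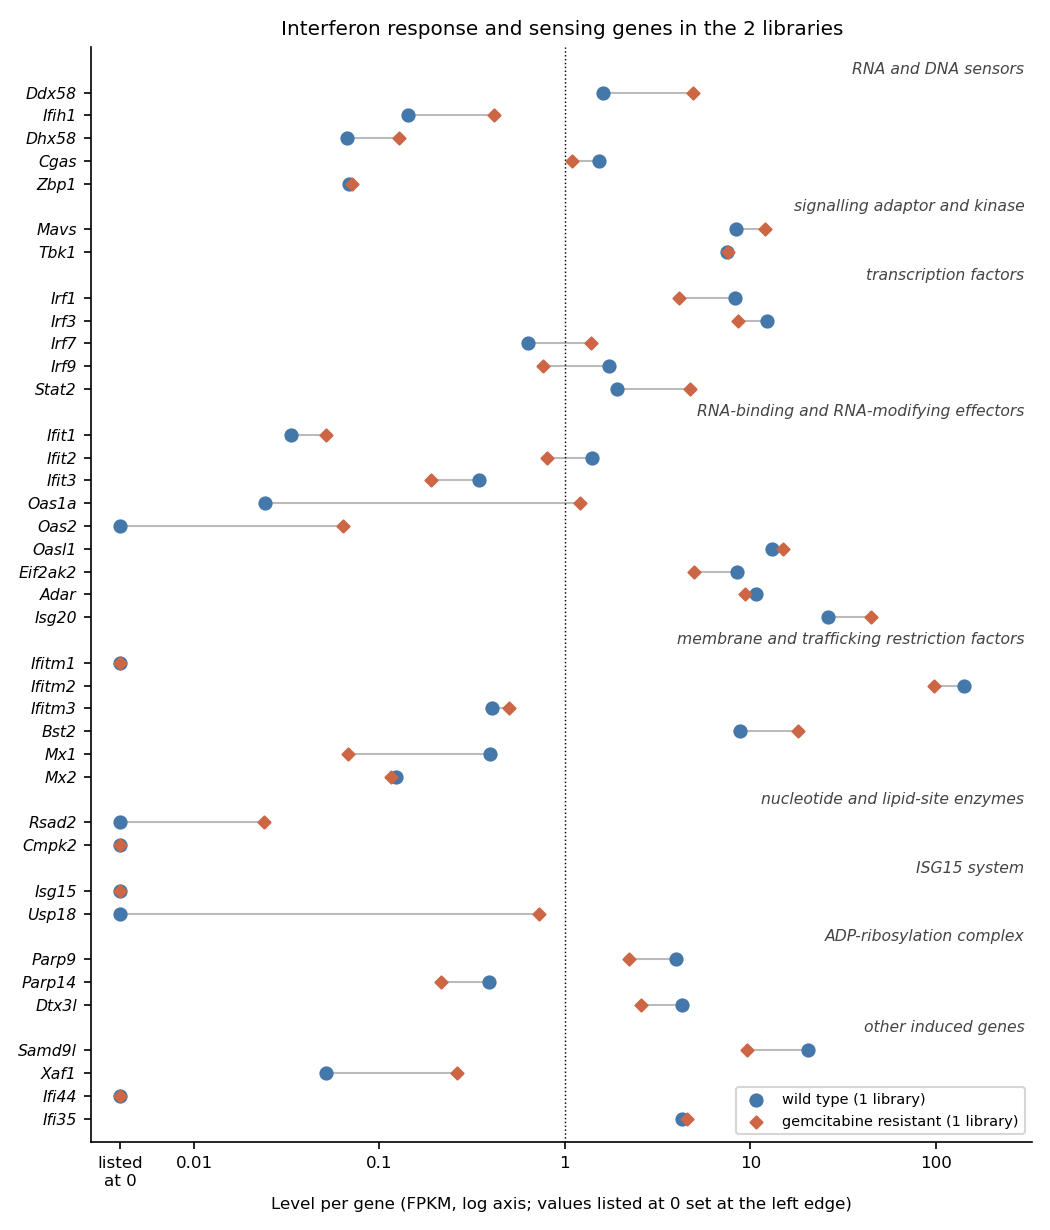
FPKM of the 38 genes in the wild type library (circles) and the resistant library (diamonds) on a log axis, grouped by role, with values listed at 0 set at the left edge and a dotted line at 1 FPKM. Ifitm2 stands highest in both libraries, the genes listed at 0 in both are Isg15, Cmpk2, Ifi44 and Ifitm1, and the longest line between 2 values above 0 is that of Oas1a.

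The genes of the RNA sensors RIG-I and MDA5 had higher values in the resistant library, and that of the DNA sensor cGAS did not. Ddx58, which encodes the RNA helicase RIG-I, was at 1.60 FPKM in wild type and 4.88 FPKM in resistant cells, an FPKM ratio of 3.05 (95% counting interval 2.51 to 3.70) and a log2 ratio of 1.18, the 94.4 percentile of all measured genes. Ifih1, which encodes the related helicase MDA5, was at 0.14 FPKM in wild type and 0.41 FPKM in resistant cells, about 18 and 51 fragments. Both helicase genes were thus low in wild type cells and near 3 times that level in resistant cells, though Ifih1 stayed under 1 FPKM. Dhx58, whose product LGP2 tunes these helicases, rested on about 4 and 7 fragments (0.07 and 0.13 FPKM). Cgas, the gene of the cytosolic DNA sensor, stood at 1.54 FPKM in wild type and 1.09 FPKM in resistant cells, a log2 ratio of -0.28. Zbp1, a sensor of Z-form nucleic acids that can trigger necroptosis, rested on about 3 fragments in each library.

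The genes next downstream of the sensors were closer between the libraries than Ddx58, though Tbk1 alone was closer than Cgas. The mitochondrial adaptor gene Mavs stood at 8.36 FPKM in wild type and 11.96 FPKM in resistant cells (log2 ratio 0.47). Tbk1, the kinase gene, stood at 7.51 and 7.61 FPKM, a log2 ratio of 0.02, whose sign turned with scaling: at the same upper quartile and at the same FPKM sum it was below 0. Irf3, the factor that TBK1 phosphorylates, stood at 12.3 FPKM in wild type and 8.59 FPKM in resistant cells (log2 ratio -0.47). All 3 genes were present in both libraries and within 2-fold.

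Stat2 and Irf9, which encode parts of ISGF3, stood on opposite sides. Stat2 stood at 1.90 FPKM in wild type and 4.71 FPKM in resistant cells, an FPKM ratio of 2.48 (counting interval 2.09 to 2.95) and a log2 ratio of 0.98, just within 2-fold on the scale with 1 added. The DNA-binding subunit gene Irf9 stood the other way, at 1.72 FPKM in wild type and 0.76 FPKM in resistant cells, an FPKM ratio of 0.44 (counting interval 0.29 to 0.64). Irf9 shares its locus in the table with its neighbour Rnf31, so fragments where they overlap may have been split between them. Irf7, the factor that amplifies type I interferon production, stood at 0.64 FPKM in wild type and 1.39 FPKM in resistant cells (log2 ratio 0.55). Irf1, an activator shared with interferon gamma signalling, stood at 8.21 FPKM in wild type and 4.11 FPKM in resistant cells (log2 ratio -0.85).

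**Figure D2:**
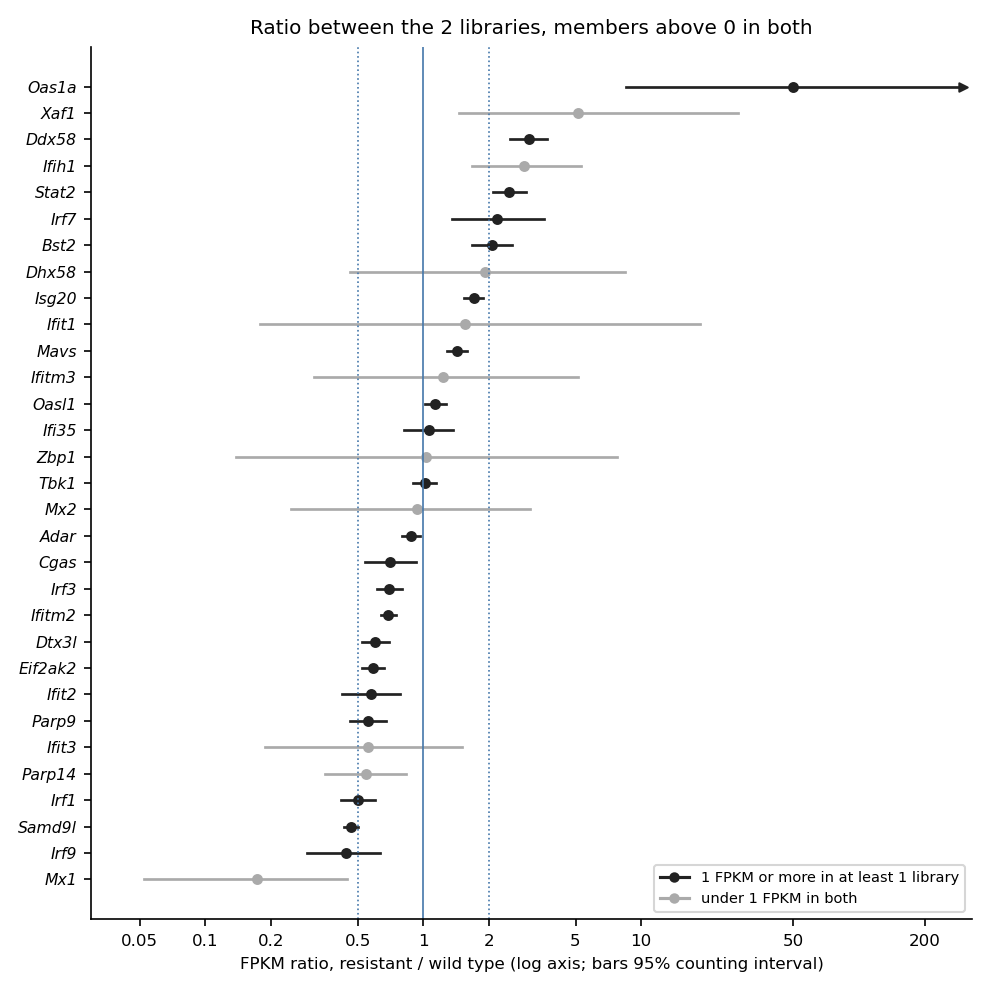
FPKM ratio of resistant to wild type for the 31 genes above 0 in both libraries, on a log axis, with 95% counting intervals as bars. Black marks measured genes and grey those under 1 FPKM in both, and the interval of Oas1a runs past the right edge; Oas1a, Xaf1 and Ddx58 have the highest ratios and Mx1, Irf9 and Samd9l the lowest.

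Among the 2',5'-oligoadenylate synthetases, which activate RNase L when they bind double-stranded RNA, Oas1a stood at 0.02 FPKM in wild type and 1.20 FPKM in resistant cells. These values correspond to 1 and 48 fragments, an FPKM ratio of 49.6 with a counting interval of 8.48 to 1999. The wild type value is thus a single fragment, and the size of the ratio is poorly fixed. Oas1a lies on chromosome 5 of GRCm38 at 120896256 to 120907521 on the minus strand, in a cluster of Oas genes. Of its neighbours, Oas2 was listed at 0 in wild type and stood at 0.06 FPKM in resistant cells. The other neighbours that were looked up are not among the 38. Oas3 stood at 0.12 and 0.77 FPKM. Oas1g was listed at 0 in wild type and stood at 0.42 FPKM in resistant cells. Oas1b stood at 0.11 FPKM in wild type and was listed at 0 in resistant cells. Oas1a, Oas1b and Oas1g are close paralogs, so fragments may have been split among them. Oasl1, which encodes a synthetase-like protein that restrains translation of Irf7, stood at 13.1 and 14.9 FPKM, the highest of the synthetase family here. Its log2 ratio of 0.17 was below 0 at the same FPKM sum. Oasl2, near it on chromosome 5 and not among the 38, stood at 0.19 FPKM in wild type and was listed at 0 in resistant cells.

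The Ifit genes, whose products bind foreign RNA ends and block its translation, were low in both libraries. Ifit1 rested on 2 fragments in wild type and 3 in resistant cells, and Ifit3 on 13 and 7 (0.34 and 0.19 FPKM). Ifit2 stood at 1.39 FPKM in wild type and 0.80 FPKM in resistant cells (log2 ratio -0.41). The 3 genes sit together on chromosome 19. Ifit2 alone was measured and so open to the call used here, and it was within 2-fold. Of the other RNA-acting effectors, Eif2ak2, Adar and Isg20 were well expressed. Eif2ak2, which encodes the double-stranded RNA-activated kinase PKR that halts translation, stood at 8.44 FPKM in wild type and 4.95 FPKM in resistant cells (log2 ratio -0.67). The RNA-editing enzyme gene Adar stood at 10.7 and 9.40 FPKM (log2 ratio -0.17). The exonuclease gene Isg20 stood at 26.3 FPKM in wild type and 44.7 FPKM in resistant cells, a log2 ratio of 0.75. Eif2ak2 and Isg20 were thus on opposite sides, each within 2-fold.

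Membrane restriction factors included the most abundant gene of the group. Ifitm2, whose product hinders fusion of virus and cell membranes, stood at 142 FPKM in wild type and 98.3 FPKM in resistant cells (log2 ratio -0.53). Its paralogs on the same stretch of chromosome 7 were nearly silent: Ifitm3 stood at 0.41 and 0.50 FPKM, 5 and 6 fragments, and Ifitm1 was listed at 0 in both. The sources used here do not say how fragments that match more than 1 Ifitm gene were assigned, so their levels are uncertain. Bst2, the gene of tetherin, which holds budding virions at the cell surface, stood at 8.82 FPKM in wild type and 18.2 FPKM in resistant cells, an FPKM ratio of 2.06 (counting interval 1.67 to 2.55) and a log2 ratio of 0.97. The dynamin-like GTPase genes were under 1 FPKM: Mx1 rested on about 30 fragments in wild type and 5 in resistant cells (0.39 and 0.07 FPKM), and Mx2 on about 7 and 6.

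In the ISG15 system, Isg15, a ubiquitin-like protein gene that interferon induces strongly, was listed at 0 in both libraries. For a transcript of its 756 bases, 0 fragments allow at most 0.26 FPKM in wild type and 0.27 FPKM in resistant cells at 95% confidence, counting error only. Usp18, which encodes the protease that removes ISG15 and also restrains the type I interferon receptor, was listed at 0 in wild type and stood at 0.72 FPKM in resistant cells, 27 fragments by an approximate count (counting interval 0.48 to 1.05 FPKM). It shares its locus with another row, so fragments where they overlap may have been split between them. In the authors' deposited table Usp18 was the single gene of the 38 with a call, at a q-value of 0.0385. That table calls 0.404% of the 13850 rows it tested. It tested 23 of the 38 genes, did not test the other 15, and gave Ddx58 and Oas1a a q-value of 0.998 each. Among all 1162 genes between 0.5 and 1 FPKM in resistant cells, 10.4% were listed at 0 in wild type, as Usp18 was. Rsad2, the gene of the antiviral enzyme viperin, was listed at 0 in wild type and rested on 2 fragments in resistant cells, and its neighbour Cmpk2, a mitochondrial nucleotide kinase gene, was listed at 0 in both.

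All 3 genes of the ADP-ribosylation group had lower values in resistant cells, each within 2-fold. Parp9 and Dtx3l encode partners that act as a ubiquitin and ADP-ribose ligase complex and are read from overlapping starts on chromosome 16. Each shares its locus with other rows, so fragments where they overlap may have been split between them. Parp9 stood at 3.96 FPKM in wild type and 2.21 FPKM in resistant cells (log2 ratio -0.62). Dtx3l stood at 4.29 and 2.58 FPKM (log2 ratio -0.56), and Parp14, a mono-ADP-ribosyltransferase gene nearby, at 0.39 and 0.21 FPKM. The log2 ratios of Parp9 and Dtx3l were below 0 under each of the 3 scalings tried.

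Samd9l, which encodes an interferon-inducible restriction factor that restrains translation, stood at 20.5 FPKM in wild type and 9.58 FPKM in resistant cells. Its log2 ratio was -1.03, the 7.80 percentile of measured genes, and its FPKM ratio was 0.47 (counting interval 0.43 to 0.50), so it sat close to the 2-fold line. With 5 as the added constant its log2 ratio was -0.81, within 2-fold. Xaf1, a pro-apoptotic partner of XIAP, rested on about 3 fragments in wild type and 15 in resistant cells (0.05 and 0.26 FPKM). Ifi35 stood at 4.29 and 4.55 FPKM, a log2 ratio of 0.07 that was below 0 at the same upper quartile and at the same FPKM sum. Ifi44, whose product is strongly induced by interferon, was listed at 0 in both libraries.

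The response element that ISGF3 binds was sought in promoter windows because the members above that stood higher and those that stayed silent are both textbook targets of it. Windows of 250 bases before to 50 after the transcript start, from RefSeq on GRCm38.p6, matched 30 of the 38 genes. The motif was GAAA, then any 2 bases, then GAAA, searched on both strands with overlapping matches allowed. It was found in 12 of these 30 genes (40.0%), against 3.99% of 27025 genes with a window. The gamma-activated site TTCNNNGAA was found in 9 of 30 (30%), against 9.55% of all genes. Sequences are printed 5′ to 3′ on the gene's strand with the match in capitals, so a match on the other strand begins and ends with TTTC. The first 4 are from the measured genes with the element and an FPKM ratio above 2, Ddx58 (chr4:40239804-40239833, minus strand), Oas1a (chr5:120907526-120907555, minus), Stat2 (chr10:128270266-128270295, plus) and Bst2 (chr8:71537583-71537612, minus).
Ddx58: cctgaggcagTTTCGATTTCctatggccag
Oas1a: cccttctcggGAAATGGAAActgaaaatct
Stat2: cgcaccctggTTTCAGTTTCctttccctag
Bst2: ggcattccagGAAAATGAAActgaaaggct

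The same element was found in genes that were silent or nearly so in both libraries. These windows are from Isg15 (chr4:156200871-156200900, minus strand), Ifit1 (chr19:34640794-34640823, plus), Ifit3 (chr19:34583397-34583426, plus) and Rsad2 (chr12:26456553-26456582, minus), and from Ifitm2 (chr7:140955988-140956017, minus), the most abundant member.
Isg15: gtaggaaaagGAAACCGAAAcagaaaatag
Ifit1: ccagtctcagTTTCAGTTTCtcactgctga
Ifit3: tttaagtctgTTTCAGTTTCtactttcctc
Rsad2: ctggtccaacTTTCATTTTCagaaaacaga
Ifitm2: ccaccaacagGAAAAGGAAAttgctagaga

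Oas1a and Isg15 show the contrast at full length, the former at 1.20 FPKM and the latter listed at 0 in resistant cells. The 250 bases before each start are printed, Oas1a at chr5:120907526-120907775 and Isg15 at chr4:156200819-156201068, both on the minus strand, with overlapping matches joined in capitals. The first match begins 20 bases before the start in Oas1a and 78 bases before it in Isg15, which holds 3 overlapping matches against 2 in Oas1a.
Oas1a: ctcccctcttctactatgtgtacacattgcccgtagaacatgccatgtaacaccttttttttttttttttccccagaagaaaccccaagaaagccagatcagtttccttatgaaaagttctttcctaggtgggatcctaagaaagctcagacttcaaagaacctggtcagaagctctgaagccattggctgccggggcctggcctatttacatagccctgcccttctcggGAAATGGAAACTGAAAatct
Isg15: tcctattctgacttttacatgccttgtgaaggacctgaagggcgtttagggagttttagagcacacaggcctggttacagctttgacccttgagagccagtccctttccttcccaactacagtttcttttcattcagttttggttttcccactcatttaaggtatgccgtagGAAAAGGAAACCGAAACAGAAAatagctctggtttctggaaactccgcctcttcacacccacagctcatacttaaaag

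Of the 12 members with the element, 6 were measured. Their log2 ratios were 1.18 for Ddx58, 1.10 for Oas1a, 0.98 for Stat2, 0.97 for Bst2, -0.53 for Ifitm2 and -0.67 for Eif2ak2, with a median of 0.97. The 14 measured members with a window but no match had a median of -0.23 and ran from -1.03 to 0.75. This contrast rests on the filter and the exact motif. Oas1a was measured through the resistant library alone, and over all 12 members with the element, measured or not, the median was 0.06, against 0.00 for the 18 without. With 1 mismatch allowed, a comparison of these medians added after the values were seen, the median was -0.08 for 16 measured members with the element and 0.09 for 4 without. Over all genes the same split was small: 295 measured genes with the element had a median of 0.07 and 9.15% were at least 2-fold higher, against 0.00 and 7.07% for 8402 genes without it. A match describes letters in a window, not binding.

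**Figure D3:**
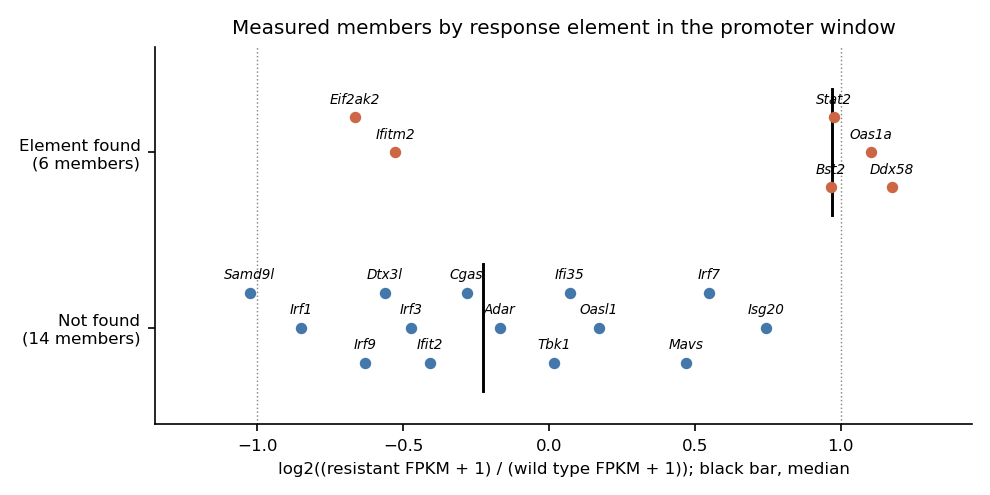
Log2 ratio of resistant to wild type, log2(FPKM + 1) scale, for the 20 measured members with a promoter window, by whether the response element was found, with the median as a black bar and 2-fold lines dotted. Of the 6 genes with the element, Ddx58, Oas1a, Stat2 and Bst2 lie between 0.97 and 1.18 and Ifitm2 and Eif2ak2 below 0.

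The rest of the pathway was described with lists of 98 other genes, of which 53 were measured, 5 were at least 2-fold higher and 4 lower. These are 9.43% and 7.55% of the measured genes, near the 7.9% and 8.37% of all measured genes, and the shares of each list below are read against the same values. No interferon ligand gene reached 1 FPKM: 9 of 10 had a value of 0 in each library, and Ifnk stood at 0.07 FPKM in resistant cells only. The receptors and their kinases were measured in both libraries, and those named here lay within 2-fold. The type I receptor genes Ifnar1 and Ifnar2 stood at 17.5 and 19.5 FPKM in wild type and at 10.7 and 20.4 FPKM in resistant cells. Jak1 stood at 29.99 FPKM in wild type and 38.9 FPKM in resistant cells, Tyk2 at 4.45 and 4.79 FPKM and Jak2 at 24.2 and 22.5 FPKM. The gamma receptor genes Ifngr1 (40.0 and 45.6 FPKM) and Ifngr2 (27.6 and 33.6 FPKM) and the lambda receptor genes Ifnlr1 (2.34 and 2.39 FPKM) and Il10rb (11.3 and 8.86 FPKM) were within 2-fold too. Receptor transcripts were thus present in both libraries, while the single ligand value above 0 rested on 1 fragment.

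Among further sensors and adaptors, Aim2, the gene of a cytosolic DNA sensor that assembles an inflammasome, stood at 0.97 FPKM in wild type and 27.9 FPKM in resistant cells, an FPKM ratio of 28.6 and a log2 ratio of 3.87. It was the single higher gene of 13 measured, and 2 were lower: Myd88, the Toll-like receptor adaptor gene (11.7 and 4.26 FPKM), and Rnf135, whose product ubiquitinates RIG-I (2.81 and 0.73 FPKM). These are 7.69% higher and 15.4% lower, against 7.9% and 8.37% of all measured genes. Aim2 reached 1 FPKM in the resistant library alone and Rnf135 in wild type alone. The filter thus admitted each through the library where it is high, and both shares rest partly on the filter. The list's median was -0.61, with 9 of 13 ratios below 0, against a median of 0.02 and 6005 of 12193 ratios below 0 over all measured genes. Genes that clear nucleic acids had a median of -0.58. Of these 8 genes, 2 were at least 2-fold lower in resistant cells and none was higher. The lower ones were the DNA exonuclease gene Trex1 (3.48 and 0.74 FPKM) and the lysosomal nuclease gene Dnase2a (10.8 and 3.98 FPKM). They are 25% of the list, against 8.37% of all measured genes. Trex1 reached 1 FPKM in wild type alone, where it is high, so the share of 25% rests partly on the filter. The 6 measured negative regulators all lay within 2-fold, with a median of -0.07.

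Of 30 further genes induced by type I interferon, 15 were measured, 3 were at least 2-fold higher and none lower, with a median of 0.28 and 12 of 15 ratios above 0. Over all measured genes the median was 0.02 and 50.8% of ratios were above 0. The higher genes are 20% of those measured, against 7.9% of all measured genes. The highest were Tor3a, an ATPase gene of the endoplasmic reticulum (4.45 and 16.7 FPKM), and Phf11d (0.04 and 2.24 FPKM). Of the 3 higher genes, Tor3a alone reached 1 FPKM in wild type. The others passed the filter through the resistant library, where they are high. The share of 20%, the median and the count of ratios above 0 thus rest partly on the filter. Of 14 GTPase genes induced by interferon gamma, Irgm1 alone was measured, at 10.4 FPKM in wild type and 4.82 FPKM in resistant cells, and 6 were listed at 0 in both. Under 1 FPKM in both libraries were thus 15 of the 30 genes and 13 of the 14 GTPase genes, against 43144 of all 55337 gene symbols.

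**Figure D4:**
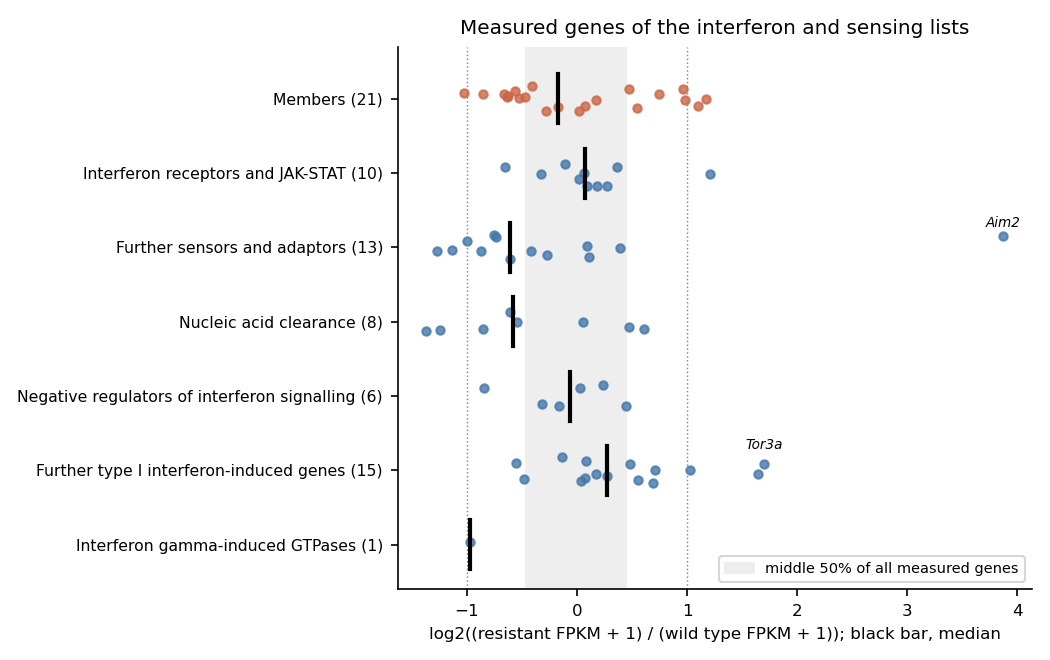
Log2 ratio of resistant to wild type, log2(FPKM + 1) scale, for each measured gene of the 38 members and of the other interferon and sensing lists, with the number measured in brackets, the median as a black bar and the middle 50% of all measured genes shaded. Aim2 lies far to the right at 3.87, and the medians of further sensors and of nucleic acid clearance genes lie left of the shaded band at -0.61 and -0.58.

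As a check of the labelled cell type, keratin genes Krt8, Krt18 and Krt19 and the cadherin gene Cdh1 were between 164 and 1864 FPKM in both libraries, and Krt7 was at 7.56 FPKM in wild type and 32.6 FPKM in resistant cells, at least 2-fold higher. The epithelial markers Epcam, Cldn4 and Cldn7 were under 1 FPKM. Because leukocytes express many of these genes highly, their markers are given beside the results above. Of 13 leukocyte markers, 3 were measured, Cd14 (36.8 and 25.7 FPKM), Cd68 (1.17 and 5.48 FPKM) and Lyz2 (0.36 and 1.53 FPKM), and 5 were listed at 0 in both. The pan-leukocyte gene Ptprc was listed at 0 in wild type and stood at 0.23 FPKM in resistant cells. The list summed to 38.5 and 32.98 FPKM, and Cd14, which was lower in resistant cells, made up most of both sums. Cd68, Lyz2 and Ptprc were higher in resistant cells. The highest value among the remaining leukocyte markers was 0.10 FPKM, in wild type. All 8 fibroblast markers were under 1 FPKM in both libraries, and of 6 endothelial markers Egfl7 alone was measured (7.48 and 10.2 FPKM). The part of such cells in the values above was not tested.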

How the data were processed

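RNA of 1 wild type and 1 gemcitabine-resistant KPC2 library was compared. HISAT2, StringTie and the build GRCm38 are named, with no role or version, in the submitters' processing notes. The unit of the deposited levels is not named, and they were treated as FPKM computed by the authors. Per the file headers, each gene has the authors' log2 fold change, their test statistic (a score), a p-value and a q-value. Rows of 1 symbol were summed, and 13 rows marked as failed or too deep, none of a member, were left out. The measure was log2((resistant + 1)/(wild type + 1)), called at 2-fold among genes at 1 FPKM or more in either library. Low values of genes with 1 transcript of 1000 to 8000 bases lay within 0.1 of whole fragments for 92.8% (wild type) and 93.8% (resistant), after 160 bases were taken off the length. At 1 remaining kilobase a fragment was worth 0.0417 FPKM in wild type and 0.0431 FPKM in resistant cells, and less at greater lengths. FPKM intervals are exact Poisson, ratio intervals exact binomial, both at 95%, for the principal GENCODE M21 transcript, and cover counting error only. For 32 of the 38 genes, which have several transcripts, fragment numbers are approximate. Of the 38 genes, 16 share a locus with another row. The members and lists were chosen with earlier results of these data known. Every member is named, as are the measured receptor and JAK-STAT genes except 1 that is not reported here, and of each other pathway list at most 2 genes per direction, those whose log2 ratios were largest and 1 or more in size. The Oas neighbours, Oasl2, Ifnk, Irgm1, Rnf31, single epithelial markers, Ptprc and the lists in the closing section were named after their values were seen. Promoters came from RefSeq (GRCm38.p6). Other settings were added constants of 0.1 and 5, no filter, a filter of 5 FPKM, 3 scalings, the highest row per symbol, thresholds of 1.5 and 4, 1 mismatch and a shorter window. Steps were tested on simulated data. Tools were matplotlib 3.10.9, scipy 1.17.1, pandas 2.3.3 and numpy 2.4.6 under Python 3.11.15.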

Additional observations from a re-analysis of the deposited data

How the results depend on the processing

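Against 2 higher and 1 lower members, an added constant of 0.1 gave 5 and 2, a constant of 5 gave 0 and 0 (3.51% and 2.44% of all genes), a threshold of 4-fold 0 and 0 (1.80% and 1.05%), and a threshold of 1.5-fold 5 and 5 (18.4% and 19.7%). A filter of 5 FPKM, which 11 members passed, gave 0 higher, since Ddx58 and Oas1a are under it, and 1 lower (7.76% and 7.84% of all genes). Scaling to the same FPKM sum gave 0 higher and 2 lower (5.09% and 13.3%), with a median log2 ratio of the members of -0.42. The cause of the other changes was not tested. No filter, a median ratio of 0, the same upper quartile and the highest row per symbol left the counts at 2 and 1. With no filter these are counts of all 38 genes, against 1.74% and 1.85% of 55337 genes. The comparison with all genes thus changed though the counts did not, and the median over the 38 genes was 0.00. Allowing 1 mismatch, the response element was found in 24 of 30 members (80.0%), against 38.9% of all genes. Of 21 measured members, 18 kept the sign of their ratio under the 3 scalings, the settings that could turn it, and Tbk1, Oasl1 and Ifi35 did not. No paired analysis was possible because each group has 1 library, and for the same reason no library could be left out. For 11 of the 38 genes, under 10 fragments in each library limit what can be said.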

Other observations

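The PYHIN family, cytosolic DNA sensors and related nuclear proteins encoded with Aim2 on chromosome 1, was examined after the value of Aim2 was seen. Of 13 family genes found in the table, 3 were measured, and Aim2 alone was at least 2-fold higher in resistant cells, against 7.9% of all measured genes. Aim2 reached 1 FPKM in the resistant library alone, so the filter admitted it through the library where it is high. Ifi204 stood at 1.86 FPKM in wild type and 3.61 FPKM in resistant cells, and Ifi211 at 3.39 and 3.66 FPKM. The other 10 were under 1 FPKM in both libraries. Ifi203 (0.05 and 0.58 FPKM), Mndal (listed at 0 and 0.71 FPKM), Ifi205 (0.23 and 0.48 FPKM), Ifi209 (listed at 0 and 0.04 FPKM) and Ifi213 (listed at 0 and 0.06 FPKM) had higher values in resistant cells. Ifi207 had a lower one (0.13 and 0.07 FPKM), and Ifi206, Ifi208, Ifi214 and Ifi202b were listed at 0 in both.

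Inflammasome genes were listed at the same point. Of 10 found, 5 were measured and 2 exceeded a 2-fold gain, against 7.9% of all measured genes: Casp4, whose product senses cytosolic lipopolysaccharide (0.06 and 6.58 FPKM), and the cytokine gene Il18 (0.38 and 1.99 FPKM). Both reached 1 FPKM in the resistant library alone, so the filter admitted them through the library where they are high. Their share is therefore no measure of a gain of the list. Gsdmd, the gene of the pore-forming gasdermin D, stood at 50.001 FPKM in wild type and 82.9 FPKM in resistant cells, a log2 ratio of 0.72. The other measured genes were Nek7 (26.2 and 37.1 FPKM) and Nlrc4 (2.21 and 1.79 FPKM), the latter lower in resistant cells. The adaptor gene Pycard, which links AIM2 to caspase-1, stood at 0.14 and 0.01 FPKM, Casp1 at 0.17 and 0.55 FPKM, and Il1b and Nlrp3 were listed at 0 in both libraries. Of 9 Schlafen genes, 2 were measured, Slfn2 (3.47 and 3.70 FPKM) and Slfn9 (4.89 and 2.52 FPKM), both within 2-fold.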
